A study of Mus musculus with 16 samples.

Results

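The 41 genes described here encode the machinery that stores transmitter in synaptic vesicles, primes and fuses the vesicles, and retrieves their membrane. For each gene, every region of the deposited H3K4me3 data that lay inside it or within 2 kb of either of its ends in the mm10 build was taken, which gave 114 of 35996 regions. The region of a gene with the most counts is called its main region (41 regions), and the other 73 comprise 21 further regions at a gene end and 52 internal regions. All 114 passed the filter on low counts.

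ChIP-seq, the sequencing of DNA that an antibody pulls down with a chromatin protein, gave the H3K4me3 level in the hippocampus of male mice 2 to 4 months old, with 2 libraries in each of 6 groups and a pool of 2 mice behind each library. The KO cohort, on a mixed F1 background of C57 and 129, comprised wild-type (WT) and Kdm5c knockout (KO) mice, each without treatment (standard) and after 1 h alone in a box with plastic tubing and small toys (novelty). The second cohort, on pure C57BL/6J, comprised untreated mice labelled ifKO Kdm5c and their controls, called ifWT here; the origin of this line was not stated in the labels used here, so the cells that lost the gene cannot be stated. Controls were littermates per the labels. Kdm5C itself and H3K4me1 were measured in 1 WT and 1 KO library each, on C57BL/6J. Because cohort, background and line changed together, a difference in level between the cohorts cannot be told apart from any of these.

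A vesicle fuses when Vamp2 on its membrane zippers with Stx1a and Snap25 on the plasma membrane, with synaptotagmins as the calcium sensors and Rim, Munc13, Bassoon, Piccolo and Erc proteins as the scaffold that docks and primes it. In hippocampal pyramidal and granule cells the vesicles are filled with glutamate by the transporter encoded by Slc17a7. H3K4me3 marks the promoters of active genes, and Kdm5C removes methyl groups from this residue. A region away from the annotated start can mark an alternative promoter or an active enhancer, and the gene table used here does not tell exon from intron.

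Promoter sequences show what lies under these regions. Of the 41 genes, 32 matched a RefSeq promoter table (GRCm38.p6), with 44 windows from 250 bases before to 50 bases after a start site. The windows were searched on both strands for TGACGTCA (the CRE, bound by CREB), CACGTG (an E-box), GGGCGG (the GC box, bound by Sp1), GCGCATGCG (the NRF1 motif), and TTCAGCACC and GGACAGCG (both parts of RE1, bound by the repressor REST). In the lines that follow, the 250 bases before the start are written 5′ to 3′ on the strand of the gene, with matches to any of these motifs in capitals. Slc17a7 is shown because its main region passed no test while the regions beside it rose, Syt11 and Slc17a6 because they stand near the top and at the bottom of the order of levels, and Syn1 because it holds matches to 3 of the motifs. A short stretch of Unc13a is shown because it holds both parts of RE1.
Slc17a7, chr7:45163671-45163920, + strand: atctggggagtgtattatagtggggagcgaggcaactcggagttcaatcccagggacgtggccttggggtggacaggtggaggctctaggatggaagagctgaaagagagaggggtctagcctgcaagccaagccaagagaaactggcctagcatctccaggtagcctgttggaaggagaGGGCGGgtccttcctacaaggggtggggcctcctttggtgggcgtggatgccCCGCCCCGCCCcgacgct
Syt11, chr3:88772600-88772849, - strand: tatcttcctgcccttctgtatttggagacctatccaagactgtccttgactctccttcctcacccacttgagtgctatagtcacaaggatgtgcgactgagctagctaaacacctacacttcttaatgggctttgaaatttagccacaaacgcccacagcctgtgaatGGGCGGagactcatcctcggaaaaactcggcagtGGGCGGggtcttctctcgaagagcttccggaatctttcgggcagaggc
Slc17a6, chr7:51621580-51621829, + strand: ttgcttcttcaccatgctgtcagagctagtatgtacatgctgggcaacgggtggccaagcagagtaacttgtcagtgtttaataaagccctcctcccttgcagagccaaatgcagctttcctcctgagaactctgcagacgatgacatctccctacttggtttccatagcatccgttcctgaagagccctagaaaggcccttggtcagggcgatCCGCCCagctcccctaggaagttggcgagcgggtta
Syn1, chrX:20920919-20921168, - strand: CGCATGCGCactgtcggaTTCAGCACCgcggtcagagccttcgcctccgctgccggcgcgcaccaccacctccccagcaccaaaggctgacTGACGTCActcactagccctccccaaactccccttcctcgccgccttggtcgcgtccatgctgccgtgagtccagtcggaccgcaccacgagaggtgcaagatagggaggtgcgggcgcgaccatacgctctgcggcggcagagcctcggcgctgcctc
Unc13a, bases 7 to 31 after the start, chr8:71671727-71671751, - strand: CGCTGTCCgcgcccccGGTGCTGAA

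The GC box was the commonest of the 6 motifs, in 27 of 44 member windows (61.4%) against 35.7% of all 32851 windows of the table. Member windows were also richer in GC, with a median of 61.7% against 52.7% of all windows. Their median ratio of observed to expected CpG was 0.692 against 0.384. The motif shares were not adjusted for this, so nothing particular to these genes is read from them. It is in capitals in the Slc17a7, Syt11 and Slc17a6 stretches, so it was found at both ends of the order of levels. The RE1 part TTCAGCACC was in 2 windows, those of Syn1 and Unc13a (4.55%, against 0.371% of all windows). In Unc13a it stood on the reverse strand, 8 bases from a match to the other part. The CRE was in Syn1 and Sh3gl2 (4.55%, against 1.79% of all windows) and the NRF1 motif in Bsn and Syn1 (4.55%, against 1.75%). The E-box was in 3 windows (6.82%, against 7.15% of all windows). Of the 44 windows, 38 lay under an H3K4me3 region and 6 did not. The median GC content was 63.3% in the 38 and 44.5% in the 6, and the median ratio of observed to expected CpG was 0.712 and 0.235. The GC box was in 27 of the 38 and in none of the 6. These matches describe letters in the windows and are not evidence of binding.

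Counts over the regions totalled 18181192 to 30435735 per library and are given as CPM, counts scaled to TMM-adjusted library sizes. Counting 3 reads as the floor, a level below 0.0953 to 0.168 CPM, depending on the library, could not be detected, and such floors cover counting error only. Libraries of the ifKO group differed from each other more than those of other groups, with a chi-square per degree of freedom of 7.60 against 2.23 to 2.78 in the 4 groups of the KO cohort and 4.44 in ifWT. As a description of the tissue, 11 markers of hippocampal excitatory neurons had a summed level of 946.7 to 1015 CPM in WT standard. Of the 11, Prox1, a granule cell factor, had 97.1 and 110.8 CPM. The 6 hindbrain, thalamus and striatum markers summed to 182.2 to 183.1 CPM in WT standard. Because the lists differ in length and in the usual level of their genes, these sums cannot settle the tissue label. The Kdm5c region at the gene end had a mean of 69.4 CPM in WT standard and 60.5 CPM in KO standard, which does not report on a deletion inside the gene. By the edgeR test described below, its log2 change was -0.20 under standard conditions (adjusted p = 0.047). It was -0.15 after novelty (0.118) and -0.08 in ifKO (0.581), and only the first passed the threshold.

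A main region is by its definition the one with the most counts of its gene, and 14 genes had no other region. Its share of the counts of its gene, given as a description, had a median of 94.7% over all 41 genes and was lowest at Unc13b (38.8%), Syn3 (40.0%), Synj1 (41.7%) and Slc17a7 (49.8%). In WT standard, the level per length (CPM per kb of region) had a median of 34.7 over the 41 main regions, next to 34.1 over the main regions of all protein-coding genes, and ranged from 4.58 to 59.8. The members' main regions were wider, with a median of 2072 bp against 1616 bp. Other gene-end regions had a median of 20.2 CPM per kb and internal regions 2.32 CPM per kb, and the strongest internal region reached 35.9.

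**Figure D1:**
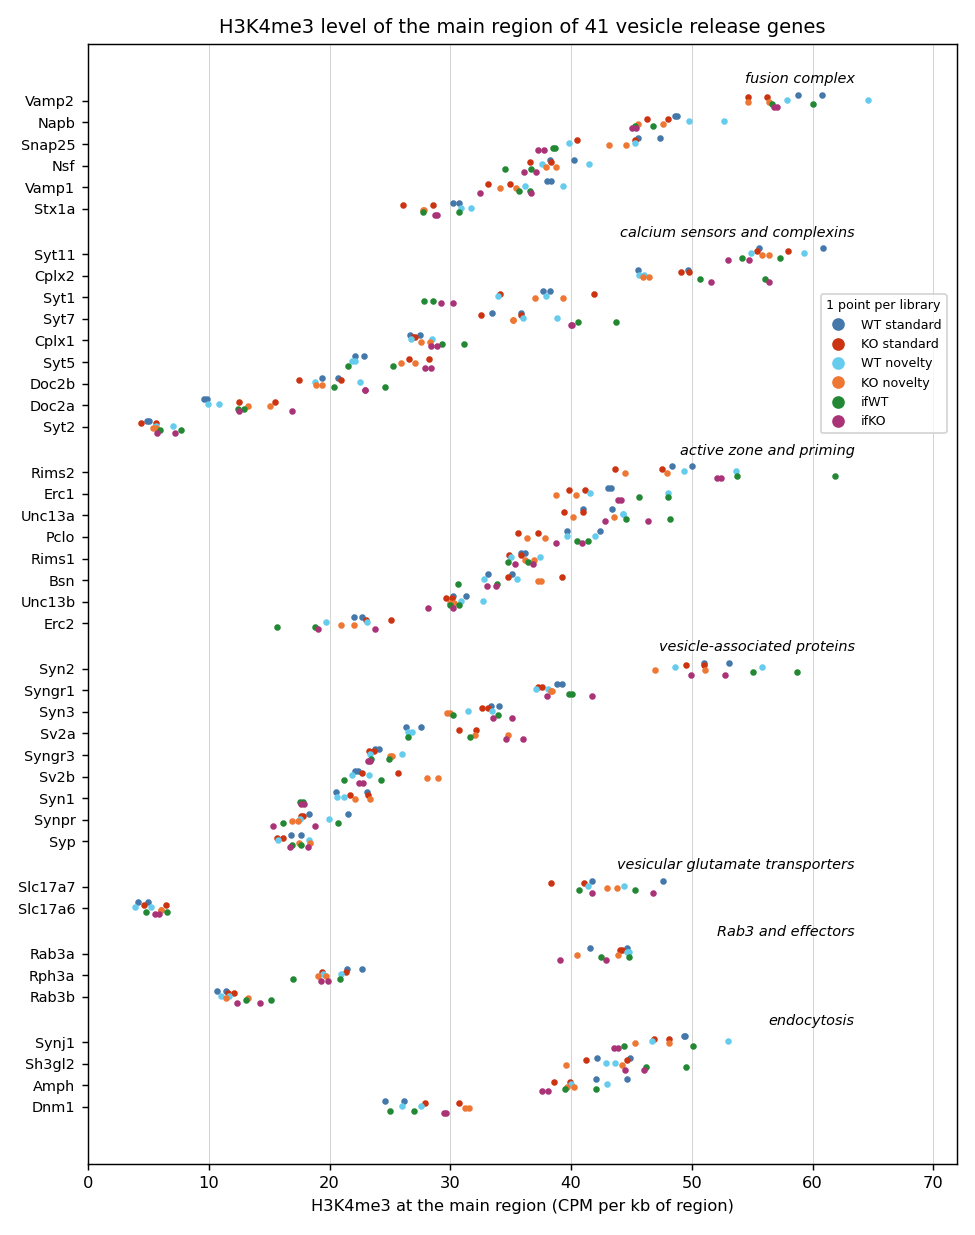
H3K4me3 level of the main region of each of the 41 genes in CPM per kb of region, by role, with 1 point per library and 1 colour per group. The fusion genes sit between 30.5 and 59.8 in WT standard, whereas Slc17a6, Syt2 and Doc2a lie under 10 there.

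By role, the 6 fusion genes had a median of 42.9 CPM per kb in WT standard (30.5 to 59.8), the 4 endocytosis genes 43.4 (25.3 to 49.4) and the 8 active zone and priming genes 38.5 (22.4 to 49.2). The 9 calcium sensor and complexin genes had 27.1 (4.96 to 58.2), the 9 vesicle protein genes 23.9 (17.2 to 52.1) and the 3 Rab3 genes and effectors 22.1 (11.0 to 43.1). The roles therefore overlapped widely in level. In the order of the 41 levels, 27 of 40 pairs of neighbours had overlapping libraries, so only coarse differences in that order exceed the spread.

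The highest level per length was that of Vamp2, the vesicle SNARE, at 59.8 ± 1.41 CPM per kb (SD, n = 2), higher than 94.9% of protein-coding main regions. Its libraries had 120.3 and 124.3 CPM in WT standard, 115 and 112 in KO standard, 118 and 132 in WT novelty, 112 and 115 in KO novelty, 123 and 116 in ifWT, and 117 and 116 in ifKO. In the KO cohort every WT library of Vamp2 stood above every KO library, but no test passed the threshold (log2 change -0.11 ± 0.06 SE standard and -0.14 ± 0.05 novelty). Syt11, a synaptotagmin that does not act as a fast calcium sensor, had 58.2 ± 3.69 CPM per kb. Its libraries had 100.5 and 110.0 CPM in WT standard, 100.2 and 105 in KO standard, 99.2 and 107 in WT novelty, 101 and 102 in KO novelty, 104 and 97.9 in ifWT, and 95.8 and 99.0 in ifKO, with mutant and control overlapping in all 3 contrasts. The main region of Syt11 lay inside the gene at a RefSeq start site 2546 bp from the gene end. Syn2, a synapsin that tethers vesicles, followed at 52.1 ± 1.5 CPM per kb, with 85.7 and 89.2 CPM in WT standard, 83.2 and 85.7 in KO standard, 81.7 and 93.8 in WT novelty, 85.9 and 78.9 in KO novelty, 98.6 and 92.6 in ifWT, and 83.9 and 88.7 in ifKO.

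The lowest level was that of Slc17a6, the glutamate transporter of mainly subcortical neurons, at 4.58 ± 0.601 CPM per kb, against 44.7 ± 4.17 CPM per kb at Slc17a7. Slc17a6 had 6.24 and 5.18 CPM in WT standard, 8.01 and 5.83 in KO standard, 6.54 and 4.84 in WT novelty, 7.56 and 7.53 in KO novelty, 5.98 and 8.17 in ifWT, and 6.94 and 7.36 in ifKO. The ranges of WT and KO overlapped under standard conditions and did not after novelty, where the log2 change of 0.42 ± 0.18 missed the threshold (adjusted p = 0.105). Syt2, the fast calcium sensor best known from brainstem and interneurons, had 4.96 ± 0.159 CPM per kb. Its libraries had 6.87 and 6.57 CPM in WT standard, 7.64 and 5.98 in KO standard, 9.58 and 7.58 in WT novelty, 7.66 and 7.24 in KO novelty, 8.03 and 10.4 in ifWT, and 7.77 and 9.77 in ifKO, with mutant and control overlapping in all 3 contrasts. An internal region of Syt2 was about as high, with 6.51 and 6.70 CPM in WT standard. Doc2a, a calcium sensor of spontaneous and asynchronous release, was the third lowest at 9.71 ± 0.174 CPM per kb.

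The range of each main region over the 12 libraries is given as a description. It was not computed for the main regions of other genes, so it is not read as particular to these genes. The highest library was 1.24 times the lowest in the median, from 1.08 times at Rims1 to 1.76 times at Doc2a, and stayed under 1.5 times in 36 of 41 genes. Syt1, the main fast calcium sensor, was one of the other 5. It had 99.7 to 122.9 CPM in the 8 libraries of the KO cohort and 81.7 to 88.7 CPM in the 4 of the C57BL/6J cohort, without overlap. This cohort difference was not among the tests.

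Mutant and control were then compared, which asks where the mark on these genes differs in animals with a mutated demethylase gene. Regions rose or fell, in the terms used here, where their edgeR quasi-likelihood p, adjusted by Benjamini-Hochberg over 35955 regions, was under 0.05, and changes are log2 values ± SE. These p-values rest on the spread between pools, 2 per group, estimated in a shared fit over all 12 libraries and 6 groups. They do not measure the spread of the compared groups alone. Because the ifKO and ifWT libraries differed more within their groups than those of the KO cohort, the shared spread may be too small for ifKO against ifWT. More cells carrying the mark and more mark per cell cannot be told apart in whole tissue.

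In KO against WT under standard conditions, 4 of 41 main regions rose (9.76%, against 5.51% of protein-coding main regions) and 1 fell (2.44%, against 8.16%). Of the 73 other regions, 10 rose (13.7%, against 11.5%) and none fell (against 1.04%), and none had an unadjusted p under 0.05 in the lower direction; DESeq2 also called none lower. After novelty, KO against WT gave 5 main regions higher (12.2%, against 5.84%) and 1 lower (2.44%, against 13.3%), and 9 other regions higher (12.3%, against 13.6%) and none lower (against 1.93%), again with none at an unadjusted p under 0.05 and none by DESeq2. In ifKO against ifWT, 3 main regions rose (7.32%, against 2.56%) and none fell (against 2.22%, with 2 at an unadjusted p under 0.05 and none by DESeq2). There, 4 other regions rose (5.48%, against 5.42%) and none fell (against 0.287%, with 1 at an unadjusted p under 0.05 and none by DESeq2). Each difference from the background rests on a handful of regions. The members' main regions had median log2 changes of -0.04, -0.04 and -0.02 in these 3 comparisons, next to -0.07, -0.08 and -0.06 over protein-coding main regions. The other regions had 0.13, 0.04 and 0.05, next to 0.11, 0.12 and 0.05.

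The counts of main regions moved with single libraries and with scaling. The standard count of 5 became 1 on leaving out replicate 1 of WT standard, 1 on leaving out replicate 1 of KO standard, 2 without KO standard replicate 2 and 3 without WT standard replicate 2. The novelty count of 6 became 3 without WT novelty replicate 2 or KO novelty replicate 1, and the novelty count of 9 other regions became 5 without KO novelty replicate 1. The ifKO count of 3 became 0 without ifKO replicate 1 and 1, a region that was lower, without ifWT replicate 2. The split of main regions into higher and lower was 5 and 1 after novelty, but 6 and 0 with library totals or with offsets fitted to region strength, and 5 and 6 with the RLE factors of DESeq2 in edgeR. Under standard conditions it was 4 and 1, but 5 and 0 with the strength offsets and 4 and 0 with library totals.

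**Figure D2:**
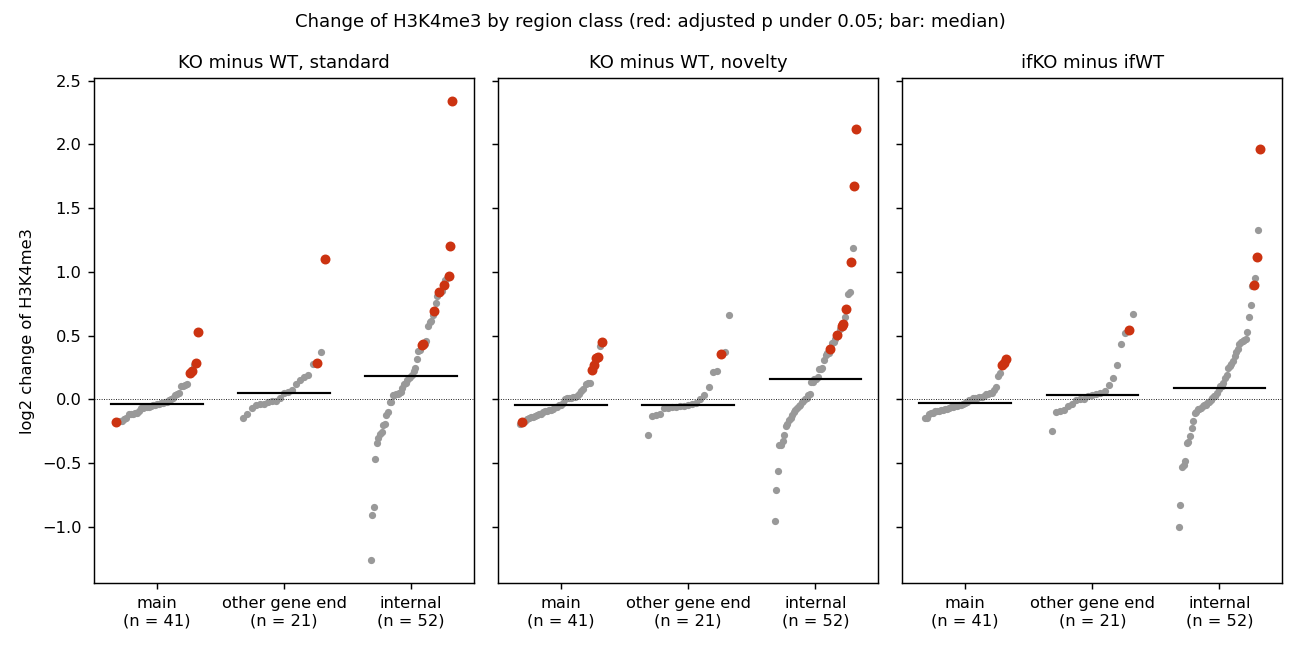
Log2 change of H3K4me3 in mutant against control for the 114 member regions, by region class and comparison, with regions past the adjusted threshold in red and class medians as bars. The red points of the internal class reach 2.34, 2.12 and 1.96, whereas those of the main class stay within 0.53 in size.

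Counted over the 3 comparisons, 20 regions of 14 genes were called at least once and 27 genes had no called region. The share of all regions called at least once was not computed, so this count is not read as particular to these genes. KO standard and KO novelty share no library, and 11 regions rose in both, of 14 that rose in each (78.6%). Over the regions of all protein-coding genes, the regions that rose in both were 74.6% of those higher under standard conditions and 65.7% of those higher after novelty. The standard comparison and ifKO share no library either, and 6 member regions rose in both, 42.9% of the 14 in KO (against 35.9% over protein-coding genes) and 85.7% of the 7 in ifKO (against 76.8%). The novelty comparison gave the same member counts against ifKO (against 32.7% and 79.3%). With so few member regions, nothing particular to these genes is read from the overlaps. No member region was called in opposite directions. The 6 regions higher in all 3 comparisons belong to 5 genes: internal regions of Erc2, Slc17a7 and Cplx2, a second gene-end region of Slc17a7, and the main regions of Sv2a and Syt5. How many of all regions rose in all 3 was not computed, so the number 6 cannot be called high or low.

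**Figure D3:**
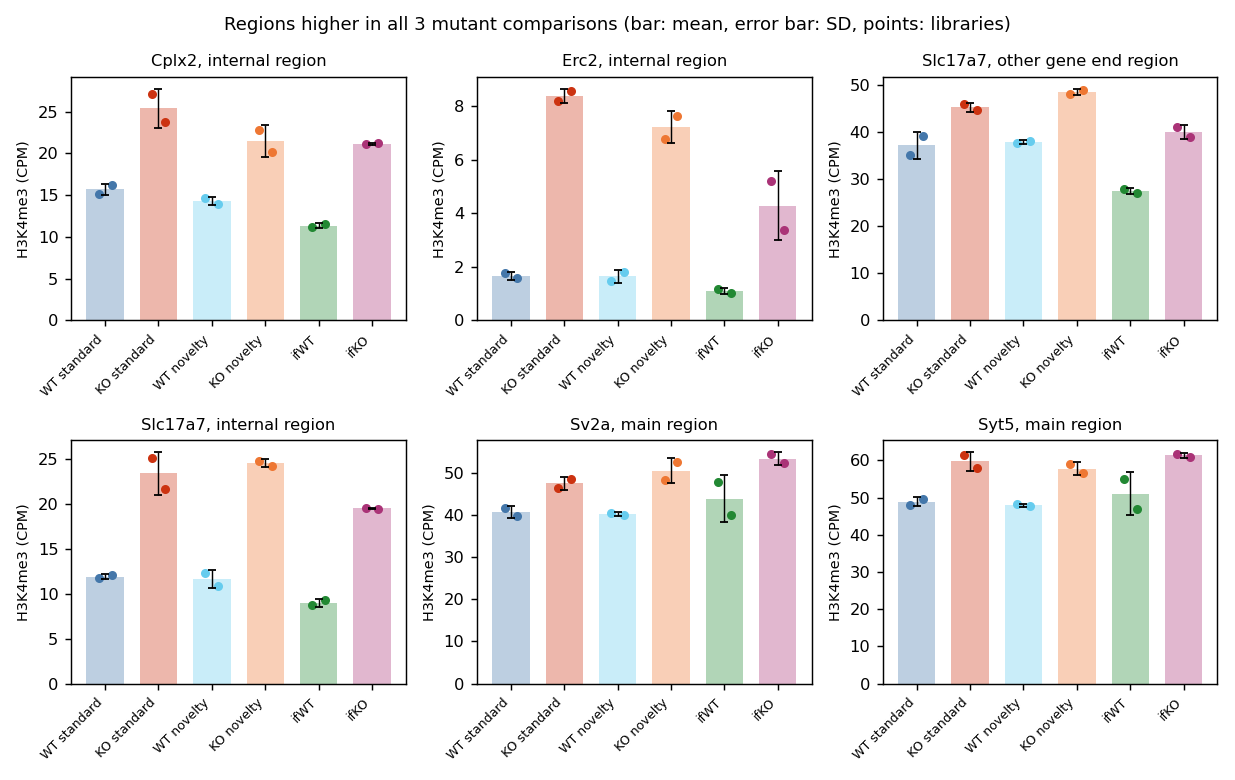
H3K4me3 in CPM at the 6 regions that rose in all 3 mutant comparisons, with bars for the group mean, error bars for the SD of 2 libraries and points for the libraries. Every mutant library stands above both libraries of its control group in each panel, and the Erc2 panel has the largest ratio.

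Erc2 (gene 238988) encodes an active zone scaffold that binds Rim proteins. Its region at chr14:27984991-27986966 lies 362.7 kb inside the gene. The libraries had 1.75 and 1.56 CPM in WT standard, 8.21 and 8.59 in KO standard, 1.48 and 1.81 in WT novelty, 6.80 and 7.65 in KO novelty, 1.18 and 1.03 in ifWT, and 5.19 and 3.37 in ifKO. Every mutant library was well above every control library. The region rose by 2.34 ± 0.22 under standard conditions (adjusted p = 9.64e-10), by 2.12 ± 0.21 after novelty (4.72e-09) and by 1.96 ± 0.26 in ifKO (2.14e-06), and all 3 calls held in every alternative tried. From 2.37% to 2.73% of the level of the main region in the WT standard libraries, it went to 11.2% and 12.8% in KO standard.

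The main region of Erc2 is itself internal, at chr14:27875846-27878754, 253.6 kb from the gene end, and had 64.1 and 66 CPM in WT standard. The region at the gene start, chr14:27622124-27624307, had 55.3 and 56.8 CPM there. The main region rose in ifKO (0.32 ± 0.09, adjusted p = 0.023), from 54.7 and 45.4 CPM to 69.1 and 55.4, so that the higher ifWT library nearly met the lower ifKO library. The call was lost in DESeq2 and on leaving out ifWT replicate 2 or ifKO replicate 1 (0.15 to 0.47 over all alternatives). In KO the change of that region was 0.11 ± 0.08 and 0.00 ± 0.08. The start region changed by -0.07 ± 0.06, -0.06 ± 0.06 and 0.00 ± 0.07, none past the threshold.

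Slc17a7 (gene 72961) fills hippocampal vesicles with glutamate. Its internal region at chr7:45167796-45168785, 3875 bp from the gene start, had 11.8 and 12.1 CPM in WT standard, 25.1 and 21.8 in KO standard, 12.4 and 10.9 in WT novelty, 24.9 and 24.3 in KO novelty, 8.72 and 9.29 in ifWT, and 19.6 and 19.5 in ifKO. Every mutant library was well above both libraries of its control group. It rose by 0.97 ± 0.11 (adjusted p = 4.68e-08), 1.08 ± 0.11 (3.26e-09) and 1.12 ± 0.12 (3.44e-08), and all 3 calls held in every alternative tried. The region between it and the start, chr7:45165371-45166852, had 35.2 and 39.1 CPM in WT standard, 46.0 and 44.6 in KO standard, 37.7 and 38.2 in WT novelty, 48.0 and 49.0 in KO novelty, 27.9 and 27.0 in ifWT, and 41 and 38.9 in ifKO. It rose by 0.28 ± 0.07, 0.36 ± 0.07 and 0.54 ± 0.08, without overlap in any contrast, and the first of these calls was lost on leaving out replicate 1 of WT standard (0.21) or of KO standard (0.26).

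The main region of Slc17a7, chr7:45163863-45165194, covers the start site that follows the sequence printed above. It had 55.6 and 63.4 CPM in WT standard, 54.7 and 51.0 in KO standard, 55.1 and 59.1 in WT novelty, 57.2 and 58.3 in KO novelty, 60.3 and 54.2 in ifWT, and 62.2 and 55.6 in ifKO. Its changes were -0.17 ± 0.07, 0.01 ± 0.07 and 0.04 ± 0.07, none past the threshold. The internal region therefore went from 18.5% to 22.4% of the main region in the WT libraries to 41.6% to 46.0% in the KO libraries, and from 14.5% and 17.1% in ifWT to 31.5% and 35.1% in ifKO. The difference between the regions of a gene was not tested.

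**Figure D4:**
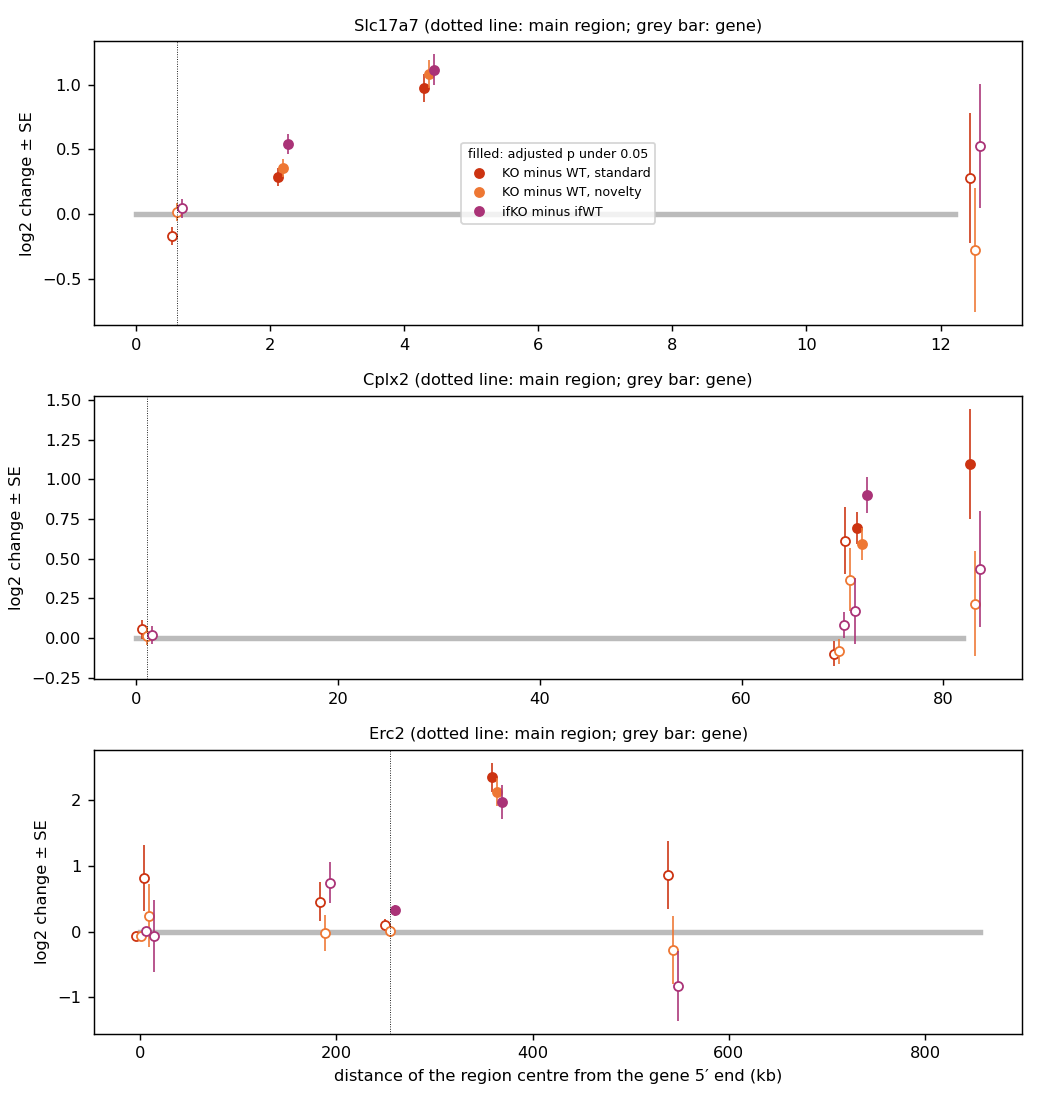
Log2 change ± SE of each region of Slc17a7, Cplx2 and Erc2 against the distance of its centre from the gene 5′ end in kb, with filled points past the adjusted threshold, the gene as a grey bar and the main region as a dotted line. The regions that rose in all 3 comparisons are separate from the main regions, by as little as 177 bp in Slc17a7, and of these 3 main regions only that of Erc2 passed the threshold, in ifKO.

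Cplx2 (gene 12890) encodes the complexin that clamps and supports fusion in excitatory neurons. Its internal region at chr13:54373156-54374740, 9183 bp from the 3′ end, had 15.2 and 16.2 CPM in WT standard, 27.1 and 23.7 in KO standard, 14.6 and 14.0 in WT novelty, 22.8 and 20.1 in KO novelty, 11.1 and 11.5 in ifWT, and 21.1 and 21.2 in ifKO. All mutant libraries were above all control libraries. The region rose by 0.69 ± 0.10 (adjusted p = 7.41e-06), 0.59 ± 0.10 (7.82e-05) and 0.90 ± 0.11 (7.49e-07), and the calls held in every alternative tried. The neighbouring weak region towards the start, chr13:54372543-54372848, had 3.37 and 2.32 CPM in WT standard and 4.93 and 3.82 in KO standard. It changed by 0.61 ± 0.21 (adjusted p = 0.051), 0.37 ± 0.20 and 0.17 ± 0.21, none past the threshold. A stronger region beyond that one, chr13:54370806-54372355, had 37.9 and 40.9 CPM in WT standard and changed by -0.10 ± 0.08, -0.08 ± 0.08 and 0.08 ± 0.08, none past the threshold. The main region at the start changed by 0.05 ± 0.06, 0.01 ± 0.06 and 0.02 ± 0.06. A weak region past the 3′ end, chr13:54384786-54385482, rose under standard conditions (1.1 ± 0.35, adjusted p = 0.032, from 1.62 and 0.581 CPM to 2.14 and 2.57), and this call was lost with the strength offsets, with DESeq2 and without WT standard replicate 2 (0.54), KO standard replicate 1 or KO standard replicate 2.

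Among the other calcium sensors, Syt5 and Doc2a had main regions that rose. Syt5, a synaptotagmin found on dense-core and other vesicles, had 48.1 and 49.7 CPM in WT standard, 61.5 and 57.9 in KO standard, 48.2 and 47.6 in WT novelty, 59.0 and 56.6 in KO novelty, 55.1 and 47.0 in ifWT, and 61.9 and 60.9 in ifKO. Its changes of 0.29, 0.27 and 0.27 (each ± 0.07) were alike in size in the 3 comparisons, and each call was lost when either of 2 libraries was left out, with values down to 0.24, 0.24 and 0.16 and adjusted p up to 0.254. This region (chr7:4545518-4547698) also lies within 2 kb of an end of Ptprh. Doc2a had 18.0 and 17.6 CPM in WT standard, 22.8 and 28.4 in KO standard, 19.9 and 18.3 in WT novelty, 27.7 and 24.3 in KO novelty, 22.8 and 23.7 in ifWT, and 22.8 and 30.9 in ifKO. WT and KO did not overlap, whereas ifWT and ifKO did. Doc2a rose by 0.53 ± 0.12 and 0.45 ± 0.11 in KO, and its change in ifKO was 0.21 ± 0.12 (adjusted p = 0.351). The first call was lost without KO standard replicate 2 (0.36), and the second without WT novelty replicate 2 (0.39) or KO novelty replicate 1 (0.35). The main regions of Syt1, Syt2, Syt7, Syt11, Doc2b, Cplx1 and Cplx2 passed no test.

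None of the 6 fusion genes (Stx1a, Snap25, Vamp1, Vamp2, Nsf and Napb) had a called region in any of these comparisons. These genes have 8 regions in all, 6 main and 2 other, so at the shares of called regions given above a count of 0 says little. Their main regions had median changes of -0.11 under standard conditions (-0.17 to -0.05), -0.13 after novelty (-0.17 to 0.04) and -0.03 in ifKO (-0.06 to 0.04). Over protein-coding main regions the medians were -0.07, -0.08 and -0.06. The lowest adjusted p values of the fusion genes by edgeR were 0.083, 0.070 and 0.670. Stx1a, the plasma membrane SNARE, had 43.6 and 42.9 CPM in WT standard and 37.0 and 40.5 in KO standard.

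The active zone and priming genes had 32 regions, of which 8 were main and 24 other regions. Of the 24, 5 rose under standard conditions (20.8%, against 11.5% of other regions of protein-coding genes), 4 after novelty (16.7%, against 13.6%) and 1 in ifKO (4.17%, against 5.42%). Rims2 (a Rim scaffold) rose at chr15:39391479-39393802, 193.2 kb inside the gene. This region had 45.4 and 40.4 CPM in WT standard, 60.6 and 55.5 in KO standard, 40.5 and 41.6 in WT novelty, 65.2 and 57.2 in KO novelty, 44.1 and 50.7 in ifWT, and 45.4 and 49.2 in ifKO. KO libraries were above WT libraries, and those of ifKO lay within the range of ifWT. It rose by 0.44 ± 0.08 (adjusted p = 0.000106) and 0.58 ± 0.07 (6.59e-07) in KO, both in every alternative tried, and changed by -0.01 ± 0.08 in ifKO. The difference of the standard KO effect and the ifKO effect was 0.44 ± 0.11 (adjusted p = 0.049), the only member of 114 called in that test, which called 0.651% of all regions higher and 0.0501% lower. That call was lost in 8 of 15 alternatives, with adjusted p up to 0.427, among them the leaving out of WT standard replicate 2, KO standard replicate 1, ifWT replicate 2 or ifKO replicate 1.

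Unc13a, a Munc13 priming factor, rose at an internal region (chr8:71628747-71629987) from 11.6 and 10.9 CPM to 14.5 and 15.8 under standard conditions and from 13.3 and 11.3 to 16.5 and 15.8 after novelty. The changes were 0.43 ± 0.12 and 0.40 ± 0.12. Both calls were lost with the strength offsets and when any of 3 libraries was left out, with values from 0.28 to 0.52 over all alternatives and adjusted p up to 0.164 and 0.278. Erc1, the widely expressed relative of Erc2, rose at an internal region 50.8 kb from a gene end (chr6:119796034-119797395), from 3.64 and 2.73 CPM to 6.12 and 5.72 and from 3.80 and 3.65 to 6.29 and 5.86, that is by 0.89 ± 0.19 and 0.71 ± 0.18. The first call was lost without WT standard replicate 2 (0.70), and the second without WT novelty replicate 2 or KO novelty replicate 1 (adjusted p up to 0.089). Bsn, the Bassoon scaffold, rose under standard conditions at an internal region (chr9:108183579-108184273, 3.19 and 3.53 against 4.97 and 7.05 CPM, 0.84 ± 0.20), a call lost on leaving out WT standard replicate 1 (0.77) or KO standard replicate 2 (0.56). None of these 3 regions passed the test in ifKO, which does not show an absence of change. Unscaled counts in ifWT and ifKO were 57 and 55 against 67 and 66 at Bsn, and 76 and 65 against 79 and 90 at Erc1. At Unc13a they were 217 and 259 against 213 and 214. The ifKO libraries had lower totals than those of ifWT. After novelty the Bsn region was not called, with 93 and 142 counts in WT and 176 and 162 in KO.

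The only falls were at main regions of this same role. Pclo, the Piccolo scaffold, had 89.6 and 95.7 CPM in WT standard and 84.1 and 80.3 in KO standard, a fall by 0.17 ± 0.06 (adjusted p = 0.036) that was lost with library totals, with the strength offsets and when any of the 4 libraries was left out (-0.22 to -0.10 over all alternatives). Erc1 had 86.6 and 99.98 CPM in WT novelty and 84.2 and 80.8 in KO novelty, a fall by 0.18 ± 0.06 (adjusted p = 0.031). It was lost with library totals, with the strength offsets and without WT novelty replicate 2, KO novelty replicate 1 or KO novelty replicate 2 (-0.28 to -0.07).

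Among the vesicle proteins, the region assigned to Sv2a as its main one (chr3:96196444-96197956) lies at the 3′ end of the gene, 1261 bp beyond it, and is shared with an end of Bola1, so it cannot be read as the Sv2a promoter. It had 41.7 and 39.8 CPM in WT standard, 46.4 and 48.6 in KO standard, 40.6 and 40.0 in WT novelty, 48.4 and 52.6 in KO novelty, 47.8 and 40.1 in ifWT, and 54.5 and 52.3 in ifKO. It rose by 0.22 ± 0.07, 0.32 ± 0.07 and 0.29 ± 0.07. The novelty call held in every alternative tried, the standard call was lost in 6 of 11, including the leaving out of any of its 4 libraries (0.19 to 0.26), and the ifKO call was lost without ifWT replicate 2 or ifKO replicate 1 (lowest value 0.16). The region at the 5′ end of Sv2a (chr3:96181131-96182955) had 42.5 and 45.8 CPM in WT standard and 42 and 39.4 in KO standard, and changed by -0.12 ± 0.07, -0.12 ± 0.07 and 0.11 ± 0.07, none past the threshold. Sv2b, the second SV2 glycoprotein, rose after novelty at its main region, from 56.6 and 60.2 CPM to 74.9 and 72.5 (0.33 ± 0.06, in every alternative tried), and at an internal region beside it, from 9.67 and 10.3 to 14.6 and 13.7 (0.50 ± 0.13, lost without WT novelty replicate 1 or KO novelty replicate 1). Under standard conditions the main region of Sv2b changed by 0.12 ± 0.07, which missed the threshold, and the interaction with novelty was not called.

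Syngr1 (synaptogyrin) had a different weak internal region called in each KO comparison. The first (chr15:80097928-80098612) had 0.629 and 1.12 CPM in WT standard and 2.14 and 1.91 in KO standard (1.2 ± 0.34), and the call was lost with DESeq2 and on leaving out replicate 1 of WT standard (0.85) or of KO standard (1.12). The second (chr15:80115451-80115732, the narrowest of all member regions at 281 bp) had 0.295 and 0.209 CPM in WT novelty and 0.763 and 0.855 in KO novelty (1.67 ± 0.55), and the call was lost with the strength offsets and when any of the 4 libraries was left out (adjusted p up to 0.258). The first region rests on 14 and 25 counts in WT standard and 52 and 52 in KO standard. The second rests on 7 and 6 counts in WT novelty and 24 and 21 in KO novelty, which is near the floor of 3 counts. No region of the synapsins, of Syp, Synpr or Syngr3, or of Rab3a, Rab3b and Rph3a was called in the 3 comparisons.

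Of the endocytosis genes, Dnm1, the neuronal dynamin that severs vesicles from the membrane, rose at its main region in KO. It had 84.4 and 89.8 CPM in WT standard, 105 and 95.9 in KO standard, 89.4 and 94.7 in WT novelty, 107 and 109 in KO novelty, 92.8 and 85.9 in ifWT, and 102 and 101 in ifKO. Every mutant library was above both of its controls. The changes were 0.21 ± 0.06 and 0.23 ± 0.06 in KO and 0.19 ± 0.06 in ifKO, the last just short of the threshold (adjusted p = 0.057). The standard call was lost on leaving out replicate 1 of WT standard (0.16) or of KO standard (0.14), and the novelty call without WT novelty replicate 1 (0.19). Amph, Synj1 and Sh3gl2 had no called region.

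No member region was called for novelty by edgeR. In WT, 0 of 114 were called (against 0.00556% of all regions higher and 0% lower), with 4 at an unadjusted p under 0.05. In KO, 0 were called (against 0% higher and 0% lower), with 9 at an unadjusted p under 0.05, and the genotype by novelty interaction also called 0 (against 0% and 0%), with 3. DESeq2 called none in any of the 3. The internal regions of Erc2, Slc17a7 and Cplx2 changed with novelty by 0.00 ± 0.26, -0.04 ± 0.12 and -0.13 ± 0.11 in WT, and by -0.22 ± 0.17, 0.07 ± 0.10 and -0.24 ± 0.10 in KO.

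Kdm5C signal was listed in the deposited files for 2321 regions, which overlap 4 main regions of members and no other member region, that is 9.76% of member main regions and 14.1% of those of protein-coding genes. The unit of these values behaves as summed base coverage, with 1 library per genotype and no replicate. The WT and KO values were 1885 and 578 at Syn3, 546 and 112 at Vamp1, 1445 and 395 at the region shared by Sv2a and Bola1, and 662 and 150 at Nsf. The ratios of WT to KO were 3.26, 4.88, 3.66 and 4.41, next to a median of 4.71 over all listed regions, which only Vamp1 exceeded. Per bp, the WT values were 3.67, 2.03, 2.95 and 3.47, each below the median of 3.98 over all listed regions. H3K4me1 at the same places was 618 in WT and 350 in KO at Syn3, 50 and 262 at Vamp1, 306 and 269 at Sv2a, and 225 and 50 at Nsf. The median H3K4me1 per bp over all listed regions was 0.603 in WT and 0.358 in KO, and the libraries were not scaled to each other here. Per bp, WT and KO had 1.205 and 0.682 at Syn3, 0.186 and 0.974 at Vamp1, 0.624 and 0.549 at Sv2a, and 1.178 and 0.262 at Nsf. Of these 4, the Sv2a and Bola1 region was the one with a called change of H3K4me3. None of the internal regions that rose in Erc2, Slc17a7 and Cplx2 was among the listed ones, and whether Kdm5C lies at them was not analysed here.

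For comparison, 82 other presynaptic genes were listed, of which 77 had a region at a gene end. Each of the 77 was represented by its gene-end region with the most counts. A main region of a protein-coding gene can also be internal, so the shares compared below follow unlike rules. In KO standard 2 rose and 9 fell, in KO novelty 2 rose and 8 fell, and in ifKO none rose (4 at an unadjusted p under 0.05) and 2 fell, with medians of -0.09, -0.09 and -0.06. The shares that rose were 2.6%, 2.6% and 0% (against 5.51%, 5.84% and 2.56% of protein-coding main regions), and the shares that fell were 11.7%, 10.4% and 2.6% (against 8.16%, 13.3% and 2.22%). The calls named here, among those with the largest changes, were Syt12 (0.34 ± 0.08) and Ap2a1 (-0.24 ± 0.07) under standard conditions, Syngr2 (-0.29 ± 0.07), Ap2m1 (-0.28 ± 0.06) and Rab27b (0.26 ± 0.09) after novelty, and Cadps2 (-0.24 ± 0.06) and Ppfia1 (-0.20 ± 0.06) in ifKO.

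Some markers of other cell types were called with genotype in each cohort, often 1 in a list. In ifKO no astrocyte, microglia or oligodendrocyte lineage marker was called. Each marker was represented by its gene-end region with the most counts. The marker counts can be set beside the shares of protein-coding main regions called in each comparison (5.51% higher and 8.16% lower, 5.84% and 13.3%, and 2.56% and 2.22%). A main region can also be internal, so these shares follow another rule of choice. The summed level of 8 astrocyte markers was 348.7 to 357.7 CPM in WT standard and 378.0 to 392.0 in KO standard, with 2 of 8 higher, and 328.4 to 340.6 and 365.3 to 376.0 after novelty, with 3 of 8 higher. In ifWT and ifKO it was 300.7 to 319.3 and 310.2 to 325.3, which overlap, with none called and a lowest adjusted p of 0.201. The 9 interneuron markers summed to 128.0 to 135.5 CPM in WT standard and 114.8 to 118.3 in KO standard, with 1 lower. After novelty they summed to 134.1 to 138.6 CPM in WT and 118.0 to 120.8 in KO, with 1 lower. In ifWT and ifKO they summed to 137.2 to 146.8 and 133.7 to 137.8, which overlap. The 9 microglia markers summed to 34.5 to 35.8 CPM in WT standard and 38.2 to 43.1 in KO standard, with 1 higher. After novelty their sum was 31.1 to 36.0 CPM in WT and 37.5 to 41.9 in KO, with 1 higher. Of the 7 oligodendrocyte lineage markers 1 was higher in KO standard, and of the 9 vascular and mural markers 1 was higher and 2 were lower. The median log2 change of the 7 was -0.12 in that comparison. Their sum was 205.1 to 215.4 CPM in WT standard and 193.9 to 206.6 in KO standard, which overlap. The oligodendrocyte lineage sum was 203.1 to 212.5 CPM in ifWT and 181.2 to 191.1 in ifKO, without overlap. Of the 6 hindbrain, thalamus and striatum markers, 1 was lower after novelty, and none was called in the other 2 comparisons. The 3 choroid plexus and ependyma markers summed to 41.9 to 42.7 CPM in WT standard and 46.8 to 47.5 in KO standard, to 37.7 to 39.3 and 41.7 to 43.4 after novelty, and to 39.7 to 44.7 in ifWT and 53.0 in both libraries of ifKO. Of these, Ccdc153 rose in all 3 comparisons (1.11 ± 0.22, 0.88 ± 0.22 and 1.43 ± 0.24) and Foxj1, a regulator of motile cilia, in ifKO (0.40 ± 0.12). In ifKO, 1 vascular and mural marker was also higher and 1 interneuron marker lower. The 11 excitatory neuron markers summed to 858.3 to 942.6 CPM in ifWT and 1027 to 1094 in ifKO, where Camk2a alone went from 140.1 and 124.2 to 272.2 and 263.0 CPM. In KO, 1 of the 11 was higher and 1 lower, both under standard conditions and after novelty. The part of these shifts in the results above was not tested.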

How the data were processed

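H3K4me3 was analysed in 12 hippocampal libraries, 2 in each of 6 groups taken from the labels. The deposited H3K4me3 files hold the authors' read counts per region, without normalization, and those for H3K4me1 and Kdm5C hold a deposited signal per region that behaves as base coverage. The build was mm10, and the tools named were featureCounts, MACS2 2.1.0, Bowtie2 2.2.9, R 3.3, DESeq2 1.10.0 and SAMtools 1.3.1, per the submitters' processing notes. The definition of the regions was not stated there. Region coordinates are printed as deposited.

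Each file lists 36005 regions, of which 9 repeats were removed. All 12 libraries were fitted together in edgeR 4.0.16 (R 4.3.3) with TMM factors, filterByExpr (41 regions removed), quasi-likelihood tests and Benjamini-Hochberg adjustment at 0.05. SEs were derived from the F statistic. The script was tested on simulated data. Alternatives were RLE factors, library totals, offsets fitted by loess to region strength, DESeq2 1.42.0, no filter, only the compared groups, a replicate block, each library left out, and windows of 0 and 5 kb.

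The members and lists were chosen with earlier results of these data known. All 41 genes were accounted for. Values in every library were given for the 3 highest and 3 lowest main regions, and in each comparison up to 6 called main and 6 called other regions and up to 3 called genes among the other presynaptic genes were named by size of change; further genes and neighbouring regions were chosen after their values were seen. A gene that this rule named among the other presynaptic genes is not reported here.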

Additional observations from a re-analysis of the deposited data

Results flagged for a closer look

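The internal region of Rims2 at chr15:39391479-39393802 differed between the lines by a test of the difference itself: the change in KO standard against WT standard minus the change in ifKO against ifWT was 0.44 (adjusted p = 0.049, edgeR). No explanation was tested, and cohort, background and line changed together.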

How the results depend on the processing

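Of the 37 calls of member regions in the comparisons of mutant and control, 15 passed the threshold in every alternative, 22 were lost in at least 1, and 0 changed direction. The main region count after novelty (6) was 11 with RLE factors and 12 with only the compared groups. The count of other regions in the KO effect minus the ifKO effect (1) was 0 with RLE factors, strength offsets, only the compared groups and DESeq2. With 1 library left out, called main and other regions ranged from 1 to 3 and 7 to 9 (standard), 3 to 8 and 5 to 9 (novelty), 0 to 4 and 4 to 5 (ifKO), and 0 to 0 and 0 to 1 (KO effect minus ifKO effect); the lone library left in a group was assumed to vary like the other groups. The causes were not tested. Same-numbered libraries did not deviate together (r from -0.04 to 0.06), so the numbers were not taken to pair them. With a replicate block, called main and other regions were 5 and 11 (standard), 6 and 9 (novelty) and 3 and 5 (ifKO). Windows of 0 and 5 kb gave 63 and 76 other regions. Weak regions, near 1 CPM, are limited by depth.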
